A study of Mus musculus with 6 samples.

Results

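miR-21a is a microRNA (miRNA), a short RNA that guides Argonaute proteins to messenger RNAs and lowers their output. Its 2 arms, the guide miR-21a-5p and the passenger miR-21a-3p, were taken by name from the 1926 miRNAs of a sequencing table of brain vesicles, of which 775 were detected. Such vesicles are small membrane sacs shed by cells. The 6 libraries were prepared from mouse brain vesicles: 3 carried the label SE (status epilepticus, a prolonged seizure) and 3 carried the label CON (matched control mice). The series title gives 24 hr. The sources used here do not give strain, sex, age or the agent that evoked the seizures, nor whether each library came from 1 animal or a pool. miR-21a was chosen by its measured difference between SE and CON, so its values in that comparison are a description and carry no test.

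A hairpin precursor is cut by Drosha and Dicer into a duplex, from which one strand, the guide, is usually retained in Argonaute while the other, the passenger, is mostly degraded. miR-21 is transcribed under STAT3 and AP-1, and it lowers the tumour suppressor Pdcd4. In brain it is low in resting tissue and is known for its induction in reactive astrocytes and microglia after injury.

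Both arms are shown with the relatives that bear on how reads were assigned. Sequences are from RefSeq (GRCm38.p6), 5′ to 3′, and capitals mark the seed, bases 2 to 8, which pairs with target messages.
miR-21a-5p: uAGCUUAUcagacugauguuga
miR-21a-3p: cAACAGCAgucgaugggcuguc
miR-21c: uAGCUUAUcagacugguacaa
miR-21b: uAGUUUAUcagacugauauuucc

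The Mir21a hairpin lies on the minus strand at chr11:86584067-86584158 (GRCm38.p6). The guide occupies chr11:86584120-86584141 and the passenger chr11:86584082-86584103, with 16 bases between them. In GENCODE M21 the hairpin falls inside exon 12 of the protein-coding transcript Vmp1-201, within its 3′ untranslated region, on the same strand as Vmp1, which encodes a membrane protein of autophagy. The submitters' processing notes name another build, mm9, so these positions are from RefSeq and GENCODE and not from the deposited files.

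The guide and the passenger have different seeds, and each would pair with a different site: AUAAGCU for the guide and UGCUGUU for the passenger. Of 1679 mature mouse miRNAs in the RefSeq table, 2 carry the seed of the guide, miR-21a-5p itself and miR-21c, and 1 carries that of the passenger. miR-21c is identical to miR-21a-5p over its first 15 bases and differs from it first at A16G, counted from 1 at the 5′ end with the base of miR-21a-5p first. miR-21b differs within the seed, at C4U. miR-21b and miR-21c had 0 reads in all 6 libraries, as did miR-590-5p and miR-590-3p. The RefSeq sequences used here held no entry for miR-590-5p or miR-590-3p, so their seeds were not compared. How reads shorter than the mature sequence were divided among these names was not recorded in the labels.

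The guide has a GC content of 36.4% and the passenger 59.1%, against a median of 52.2% over the 1679 mature sequences. Neither arm holds the letters GGAG or CCCU, both of which have been described in miRNAs sorted into vesicles. Over all 1679 mature sequences, read on the miRNA strand, GGAG occurs in 14.2% and CCCU in 11.4%.

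The libraries held 5482407 to 10845434 miRNA reads. Levels are in RPM, which divides the reads of each miRNA by all miRNA reads of its library and multiplies by a constant. In the deposited table the row of a miRNA holds its SE values, but the CON values stand in a different order, and they were put back under their names through the base means that the authors' deposited fold-change table lists. For miR-21a-5p exactly 1 CON row matched, with a relative difference of 1.35e-10, and the next nearest row was 1.53% away. That row was listed under the name let-7j. For miR-21a-3p exactly 1 row matched, with a relative difference of 1.13e-10 and the next nearest 2.06% away, and it was listed under miR-136-5p. As deposited, the row of miR-21a-3p is 0 in all 6 columns, and the row of miR-21a-5p has CON values of 47.0, 41.95 and 22.4 RPM.

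A pair of quantities was computed from the put-back reads, and neither chose which CON row went to which name. The authors' strongly negative log2 fold changes did pick the miRNAs from which the fit of SE size factors started. Median-of-ratios size factors, computed over the 459 miRNAs above 0 in every library, differed from those fitted to the base means by at most 1.60e-10 in relative terms, against 0.0255 with the names as deposited. The log2 fold changes of the authors' deposited table were recovered within 0.05 for 614 of 616 miRNAs with reads in both groups, against 81 of 687 with the names as deposited. Since each CON row was matched by its total, these recomputed fold changes follow from the base means and SE reads. They cannot test which row of a given total was taken, whereas the size factors use the CON libraries separately. The deposited fold-change table names no contrast. Its positive values go with higher levels in the columns labelled CON, so a contrast of SE over CON would give each direction below the opposite sign. Directions here follow the column labels, and the files hold nothing that would test them.

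miR-21a-5p was lower in the SE libraries, and miR-21a-3p was read in the CON libraries alone. The guide stood at 35.96, 31.7 and 33.6 RPM in SE replicates 1, 2 and 3. It stood at 117, 83.2 and 148 RPM in CON replicates 1, 2 and 3. The groups did not overlap: the lowest CON library was 2.31-fold above the highest SE library. The SE mean was 33.8 RPM ± 2.11 and the CON mean 116 RPM ± 32.5 (each SD, n = 3), a 3.44-fold difference in mean RPM. On the log2(RPM + 1) scale the difference, SE minus CON, was -1.72 (standard error 0.23, limma). In vesicles, fewer particles from a cell type and fewer copies in each particle cannot be told apart.

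The passenger had 0 reads in each of the 3 SE libraries, where 3 reads would amount to 0.277 to 0.499 RPM. In CON replicates 1, 2 and 3 it had 40, 43 and 84 reads, or 7.15, 7.84 and 12.9 RPM, with a mean of 9.30 RPM ± 3.15 (SD, n = 3). Every CON library was thus above every SE library. From 167 CON reads pooled, the passenger level in CON was 74.6-fold above a floor of 3 reads over the 3 SE libraries together. That ratio leaves out the counting error of the CON reads. The lowest value above 0 in each library stands for 2 reads, so 1 read in a library listed at 0 would not be seen. Floors and intervals cover counting error only, and reads amplified by PCR are not independent molecules.

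**Figure D1:**
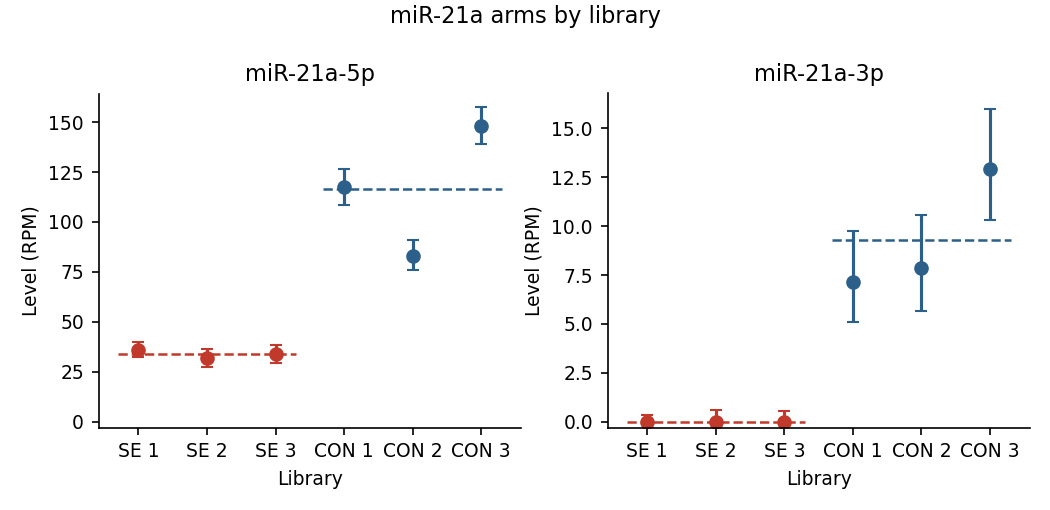
Level of miR-21a-5p (left) and miR-21a-3p (right) in each library, in RPM on linear axes, with SE in red and CON in blue; bars are exact 95% Poisson intervals and dashed lines are group means. The 3 SE libraries sit between 31.7 and 35.96 RPM for the guide and at 0 for the passenger, and CON replicate 3 is the highest library for both arms.

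The SE libraries were together the more deeply sequenced, with 23552211 miRNA reads against 17581171 in CON. At the pooled CON rate of 9.50 RPM, the SE libraries would have held 224 passenger reads. At the CON ratio of passenger to guide reads, the 806 guide reads of the SE libraries would have come with 64.8 passenger reads, and 0 were listed.

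Within each group the spread differed. The 3 SE values of the guide varied by a coefficient of 6.25%, where counting alone gives 6.10% at that number of reads. The 3 CON values varied by 27.97%, where counting alone gives 3.80%. The exact 95% Poisson intervals of the CON libraries were 109 to 127, 75.7 to 91.2 and 139 to 158 RPM, so none of the 3 touched another. The highest CON library was 1.78-fold above the lowest for the guide and 1.81-fold for the passenger, against a median of 1.40-fold over the 290 miRNAs that averaged 10 RPM or more and entered the fit. Of those 290 miRNAs, 55 had a CON spread at least as wide as that of the guide. CON replicate 3 was the highest CON library for both arms, and it was the highest for 36.2% of the 290. The arms did not follow the same order below it: replicate 2 was the lowest for the guide, and replicate 1 for the passenger.

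Taking both arms as products of 1 hairpin, the passenger made up 7.44% of the miR-21a reads in CON, 167 of 2244 pooled reads, with an exact (Clopper-Pearson) 95% interval of 6.39% to 8.61%. By library it was 5.74%, 8.62% and 8.02% in CON replicates 1, 2 and 3, with exact intervals of 4.13% to 7.73%, 6.31% to 11.4% and 6.44% to 9.83%. These intervals overlap, so at this depth the 3 CON libraries were not separable by their passenger share. In SE it was 0 of 806 reads, which allows a share of up to 0.372% as 3 reads of the total, or 0.457% as the upper bound of the exact 95% interval. In single SE libraries, with 0 of 390, 191 and 225 reads, the exact upper bounds were 0.941%, 1.91% and 1.63%. These bounds take a listed 0 as no reads and cover counting error only. They are no test between the groups, since miR-21a was chosen by its difference between them.

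**Figure D2:**
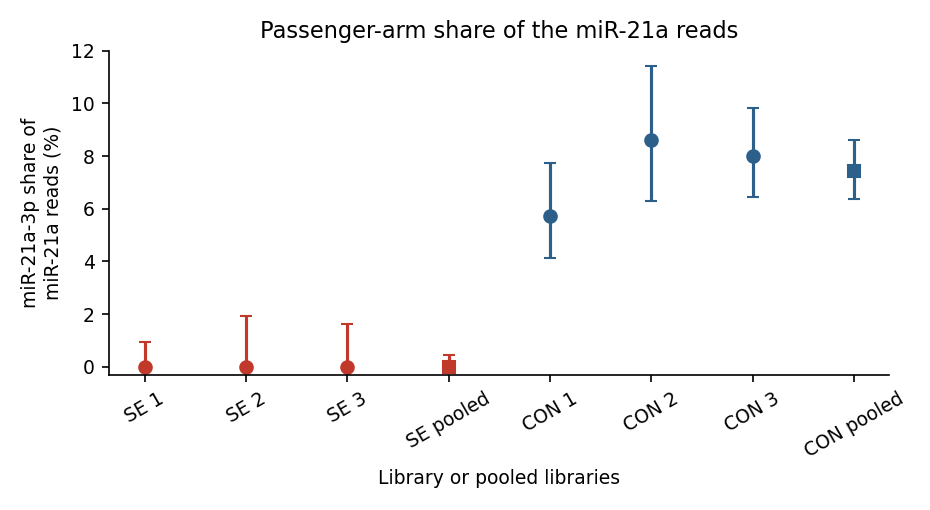
Share of the miR-21a reads that came from the passenger arm, in percent, for each library (circles) and for the pooled libraries of a group (squares), with exact 95% binomial intervals. The CON libraries lie between 5.74% and 8.62% and the SE libraries at 0.

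Other hairpins show how often one arm is missing from a group. Both arms were listed under names of their own for 406 hairpins with any read. Of these, 204 had at least 100 reads in each group, and 120 of the 204 had at least 30 reads of the minor arm in 1 of the groups. The median minor-arm share over the 120 was 8.50% in CON and 10.3% in SE, and 55 hairpins had a lower CON share than the 7.44% of miR-21a. The minor arm was at 0 in the other group for 4 of the 120, or 3.33%. miR-21a was the only one of the 4 at 0 in SE. The other three, miR-351, miR-700 and miR-326, were at 0 in CON with 31, 42 and 31 minor-arm reads in SE, and these came from 2, 2 and 1 of the SE libraries. The passenger of miR-21a had reads in all 3 libraries of the group that held it. In another hairpin, miR-872, the major arm was the one missing: miR-872-5p had 686 reads in SE and 0 in CON, while its minor arm had 237 and 222. An arm was thus at 0 in a whole group for 5 of the 120, or 4.17%. These limits of 100 and 30 reads were chosen after the values were seen. Each of the 4 with the minor arm at 0 met the limit of 30 reads only through the group that held that arm. miR-21a was also chosen by its difference between the groups, so nothing is read from its place among them.

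For the 115 hairpins with reads of both arms in both groups, the minor-arm share in SE was within 2-fold of that in CON for 111. The ratio of the SE share to the CON share ran from 0.144 for miR-1224, whose minor arm went from 3.78% in CON to 0.545% in SE, to 2.88 for miR-335. The hairpins nearest to miR-21a in major-arm reads were miR-1188, miR-206 and miR-210. Their major arms had 3004, 2741 and 2672 reads against 2883 for miR-21a-5p. Their minor arms were nearly unread, with 7 reads for miR-1188 in SE and 0 in CON, and 0 in both groups for the other two.

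**Figure D3:**
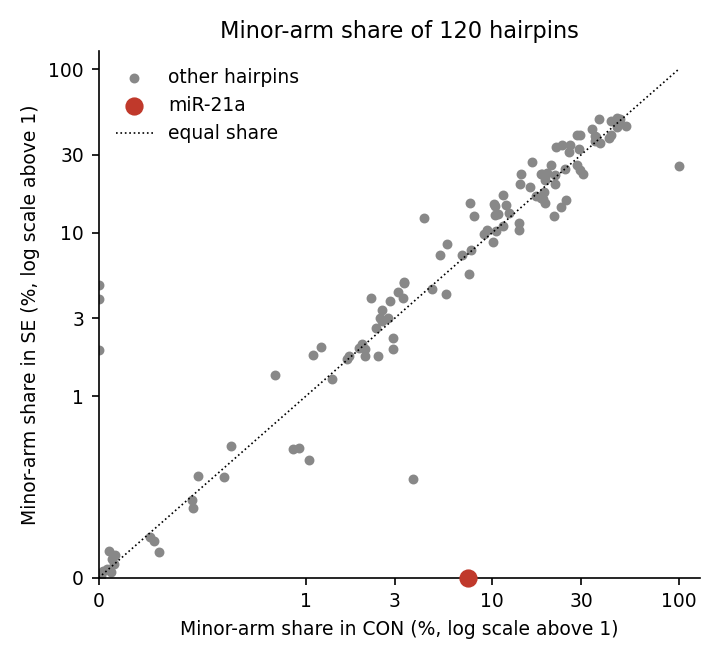
Share of the minor arm in the reads of a hairpin, CON on the horizontal and SE on the vertical axis, for the 120 hairpins (both axes in percent, linear to 1 and logarithmic above). miR-21a, in red, lies on the horizontal axis at 7.44% in CON and 0 in SE, and 111 of the 115 hairpins with both arms read in both groups lie within 2-fold of the dotted line of equal shares; the point at 100% in CON is miR-872.

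Presence in every library of one group and absence from the other was met by 5 of the 775 detected miRNAs, or 0.645%. miR-21a-3p was one of them and, with 167 reads, the second by total. The others were miR-872-5p (686 reads), miR-7004-5p (43) and miR-3057-3p (19), read in SE alone, and miR-3080-5p (38), read in CON alone. Nothing is read from the place of miR-21a-3p among the 5, since miR-21a was chosen by its difference between SE and CON.

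Among the 290 miRNAs over the filter of 10 RPM, limma-trend with Benjamini-Hochberg adjustment called 3 at an adjusted p under 0.05, which is 1.03%, and miR-21a-5p was one of these. It and miR-155-5p were the 2 lower in SE (0.690%), and 1 was higher in SE (0.345%), miR-872-5p, which was listed at 0 in CON. The authors' deposited table called 8 of 772, or 1.04%, of which 6 were positive (0.777%), both arms among them. Nothing is read from these calls, since they are what singled out miR-21a. In the authors' deposited table the log2 fold change of miR-21a-5p was 1.67 with a standard error of 0.245, and the put-back reads gave 1.67. That of miR-21a-3p in the authors' deposited table was 8.48 with a standard error of 1.35, a fitted value whose size depends on how a group at 0 is handled. With a mean of 4.65 RPM over the 6 libraries, miR-21a-3p lay under the filter and was not in the limma fit.

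The difference of miR-21a-5p was the second lowest of the 290, after miR-155-5p. The median difference of all 290 was -0.072 on the log2(RPM + 1) scale, and 286 of them lay within 1 log2 unit of 0. All 3 SE values lay below all 3 CON values for 39 of the 290, or 13.4%, so a lack of overlap was common. Nothing is read from the rank of miR-21a-5p by size of difference, since miR-21a was chosen by that difference.

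**Figure D4:**
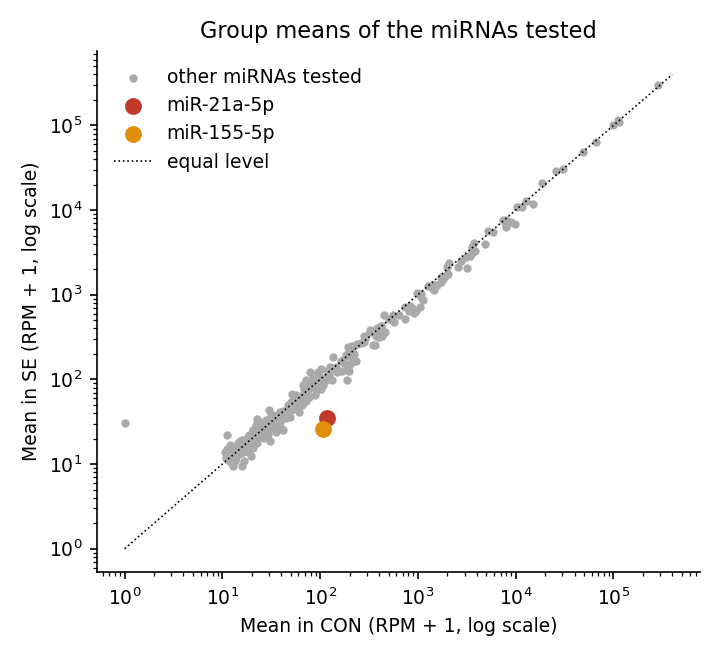
Mean level in CON (horizontal) and SE (vertical) of the 290 miRNAs tested, in RPM + 1 on logarithmic axes, with the dotted line of equal levels. miR-21a-5p, averaging 116 RPM in CON and 33.8 in SE, lies beside miR-155-5p and below the band of the other miRNAs.

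By level, miR-21a-5p ranked 184th of the 704 miRNAs above 0 in SE and 113th of the 687 above 0 in CON. In SE its neighbours were miR-667-3p (34.98 RPM), miR-150-5p (34.5) and miR-322-5p (34.0) above, and miR-146a-5p (33.5), miR-770-5p (33.3) and miR-181d-5p (32.4) below. In CON they were miR-497a-5p (121 RPM), miR-409-3p (119.7) and miR-505-5p (118) above, and miR-99b-3p (114), miR-384-5p (109.8) and miR-345-3p (109) below. The range over libraries of each of these neighbours overlapped that of miR-21a-5p, so the order among them is not resolved. miR-21a-3p ranked 297th in CON.

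The profiles nearest to that of miR-21a-5p were found as the smallest root-mean-square difference between mean-centred log2(RPM + 1) values over the 6 libraries. They were those of miR-155-5p (0.33), miR-122-5p (0.55), miR-335-5p (0.56), miR-146b-5p (0.57) and miR-29c-3p (0.59), against a median of 0.89 over all 289. miR-155-5p, which is induced in activated myeloid cells, was at 28.2, 26.3 and 21.4 RPM in SE replicates 1 to 3, against 99.4, 111 and 105 RPM in CON replicates 1 to 3. Its CON values were close together, and its highest CON library was replicate 2, the lowest for miR-21a-5p.

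miR-335-5p had CON values of 3206, 2309 and 4120 RPM, the same order of replicates as miR-21a-5p, above SE values of 2007 to 2128 RPM. miR-29c-3p, of a family abundant in astrocytes, had the same order in CON, at 1027, 656 and 1064 RPM, above 569 to 649 RPM in SE. miR-122-5p, the main hepatocyte miRNA, had another order, at 233, 175 and 150 RPM in CON, above 89.4 to 114 RPM in SE. miR-146b-5p was at 37.7 to 42.9 RPM in CON and 19.6 to 27.9 RPM in SE. The groups did not overlap for any of the 5, all lower in SE, as for 39 of the 290 (13.4%). Choosing profiles by likeness to miR-21a-5p favours such miRNAs, so this is not a separate result. miR-155-5p was called by limma (log2 difference -2.02, standard error 0.21), and the other four were not.

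**Figure D5:**
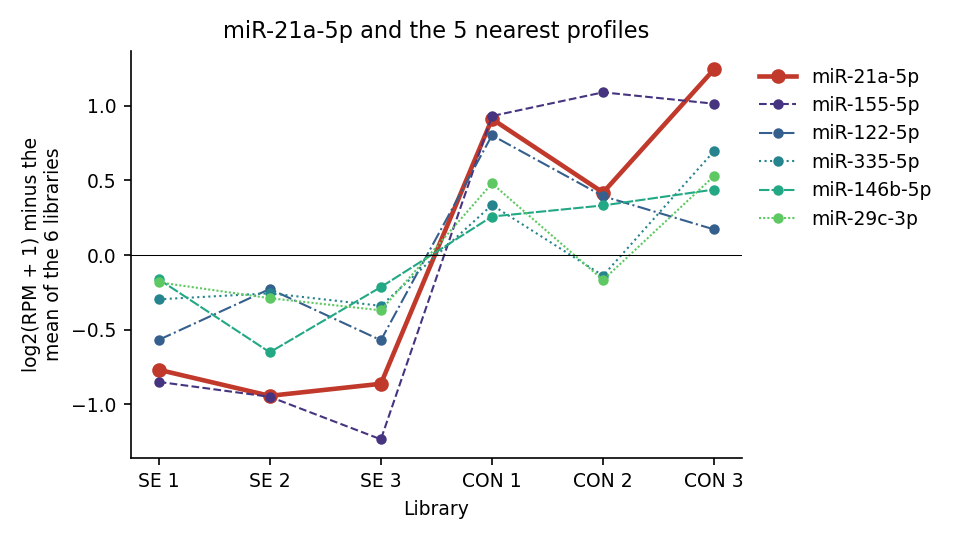
Mean-centred log2(RPM + 1) of miR-21a-5p (thick red line) and of the 5 miRNAs with the nearest profiles over the 6 libraries; lines only link the points of 1 miRNA. All 6 are below their mean in the 3 SE libraries, and miR-155-5p and miR-21a-5p have the widest gaps between the group means.

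Other miRNAs tied to miR-21 by regulation or role were read from lists. Of 13 tested miRNAs of inflammation and reactive glia other than miR-21a-5p, limma called 1, miR-155-5p, lower in SE, against the 1.03% of all miRNAs tested. The median log2 difference of the 13 was -0.14, against -0.072 for all 290. miR-146b-5p had -0.69 (standard error 0.23, limma adjusted p = 0.233) and miR-146a-5p, a brake on NF-kB signalling, 0.65 (standard error 0.26, limma adjusted p = 0.385). miR-132-3p, which is induced by neuronal activity, had -0.51 (standard error 0.20, limma adjusted p = 0.393). None of these 3 passed the test after adjustment. With miR-155-5p they made 4 of the 13 at an unadjusted p under 0.05 by limma-trend, and miR-146a-5p was the only higher one. limma-voom on recovered reads also gave 4. Over all 290 the counts were 27 (9.31%) and 26 (8.97%). The list was chosen with earlier results of these data known, so no weight is put on this count.

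miRNAs reported to be under STAT3 or AP-1, as miR-21 is, had 6 tested entries other than miR-21a-5p. Of these limma called miR-155-5p alone, against the 1.03% of all miRNAs tested. The median log2 difference of the 6 was -0.28, against -0.072 for all 290. miR-181b-5p, induced with miR-21 in transformed cells, averaged 277 RPM ± 34.3 in SE against 281 RPM ± 18.9 in CON (SD, n = 3). miR-221-3p stood at 132 RPM ± 8.59 and 144 RPM ± 12.0 (SD, n = 3), and its cluster partner miR-222-3p at 85.1 RPM ± 10.3 and 82.3 RPM ± 15.3 (SD, n = 3). For each of these 3, SE and CON values overlapped. The values also overlapped for the remaining tested entries, miR-17-5p and miR-20a-5p. Their log2 differences were -0.44 (standard error 0.31) and -0.46 (standard error 0.27).

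Of 7 tested miRNAs of injury and fibrosis other than miR-21a-5p, limma called 0, with 2 at an unadjusted p under 0.05, and limma-voom on recovered reads gave the same counts. Over all 290 tested, 27 (9.31%) had an unadjusted p under 0.05 by limma-trend and 26 (8.97%) by limma-voom. The median log2 difference of the 7 miRNAs of injury and fibrosis was -0.14, against -0.072 for all 290. The 2 were miR-29a-3p (-0.51, standard error 0.15) and miR-29c-3p (-0.56, standard error 0.20), which restrain collagen and other matrix genes. The hypoxia-induced miR-210-3p averaged 64.7 RPM ± 5.13 in SE against 65.1 RPM ± 7.51 in CON (SD, n = 3).

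Markers of the cells in which miR-21 is known to be induced were present in both groups. The 7 entries for microglia and leukocytes summed to 700.2 to 919 RPM in SE libraries and 977 to 1108 RPM in CON libraries, and none of them was at 0 in either group. miR-142a-3p, which blood-derived cells and microglia carry, averaged 9.68 RPM ± 4.41 in SE against 10.3 RPM ± 5.34 in CON (SD, n = 3), and miR-223-3p averaged 6.24 RPM ± 2.35 and 6.76 RPM ± 4.16 (SD, n = 3). The 7 entries for astrocytes summed to 12903 to 13644 RPM in SE and 14296 to 19263 RPM in CON, again with none at 0. Both sums were lower in every SE library than in any CON library, but each separation rested on 1 member. Without miR-155-5p the microglia and leukocyte sum was 674 to 891 RPM in SE and 877 to 1002 RPM in CON. Without miR-29a-3p the astrocyte sum was 6028 to 6842 RPM in SE and 6593 to 8087 RPM in CON, so the remaining markers overlapped in both lists. Leaving out any other single member kept the groups of either list apart. The part of these cells in the levels of miR-21a was not tested. The 9 neuronal entries, which check the labelled source, were all over the filter and summed to 30238 to 35067 RPM in SE and 32706 to 38297 RPM in CON. The 5 vascular entries summed to 5876 to 6727 RPM in SE and 6274 to 9016 RPM in CON. The neuronal and vascular sums overlapped between the groups. The 3 liver entries summed to 105 to 126 RPM in SE and 166 to 255 RPM in CON, and the 3 muscle entries to 208 to 222 RPM and 234 to 311 RPM. The liver and muscle sums were thus also lower in every SE library than in any CON library, so this was not particular to microglia and astrocyte markers. Of 4 erythrocyte entries, miR-144-3p and miR-144-5p were at 0 in both groups. The defining miR-451a was at 0 in SE and averaged 0.307 RPM in CON, where replicate 3 alone held reads. The remaining entry, miR-486a-5p/486b-5p, averaged 24.8 RPM ± 7.71 in SE against 25.4 RPM ± 5.43 in CON (SD, n = 3).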

How the data were processed

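Small RNA of brain vesicles was sequenced in 3 SE and 3 CON libraries, prepared with a miRNA library kit per the labels' protocols. The authors' deposited RPM table gives RPM, the reads of a miRNA per fixed total of miRNA reads in a library. The authors' deposited table of fold changes gives, per the file headers, base means (a normalized signal), log2 fold changes, a Wald score and p-values. The submitters' processing notes name DESeq2 and mm9. Aligner, counter, miRNA annotation and any use of molecular identifiers are not given in the sources used here. The 35 merged names were kept as the authors counted them.

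Reads were recovered from the RPM steps. With the lowest value of a column taken as 2 reads, all values came out whole to within 0.01 reads, and depths and shares rest on these reads. CON rows were put back under their names: 6 base means minus the size-factor-scaled SE reads give each CON total, which matched a CON row within 1e-05 for all 687 miRNAs with CON reads, 597 of them with 1 candidate row. The remaining 90 had several rows of identical reads.

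limma-trend (limma 3.58.1, R 4.3.3) was fitted to log2(RPM + 1) for miRNAs averaging 10 RPM or more. Calls are two-sided at a Benjamini-Hochberg adjusted p under 0.05. This scale understates the change of low miRNAs. The fit and the put-back step were tested on simulated data. Other steps ran in Python 3.11.15 with scipy 1.17.1, pandas 2.3.3, numpy 2.4.6 and, for figures, matplotlib 3.10.9. Nothing in the labels ties replicates to separate animals. The p-values therefore reflect the spread among these 6 libraries alone, and that spread may be technical. Members and lists were chosen with earlier results of these data known, and 1 list is not reported here.

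Named miRNAs are both arms, relatives by seed, list members that pass or are most abundant, the 5 nearest profiles, 3 neighbours by level on each side, miRNAs read in 1 group alone and the 3 hairpins nearest in guide reads. miR-21b, miR-590, the hairpins with an arm at 0 or with extreme ratios, and single list members were named after their values were seen. The alternatives were other pseudocounts, filters, scalings, a replicate block, each library left out, and the names as deposited, plus limma-voom on recovered reads, added after the data were examined.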

Additional observations from a re-analysis of the deposited data

How the results depend on the processing

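The log2 difference of miR-21a-5p stayed between -1.94 and -1.52 with each library left out in turn, and between -1.74 and -1.60 over 2 other pseudocounts, both other scalings, the replicate block and limma-voom. With CON rows under the names as deposited it was -0.069, that of miR-21a-3p was 0, its CON share was 0% and the count of called miRNAs was 0, with 2 at an unadjusted p under 0.05. The difference of miR-21a-3p, -3.32 on the log2(RPM + 1) scale, depends on the pseudocount because SE is at 0: it was -4.25 with 0.5 RPM and -1.49 with 5 RPM, and -3.47 to -3.09 with a library left out. Its CON share was 6.94% to 8.21% with a CON library left out. The count of called miRNAs was 3 to 6 with a library left out, 6 without CON replicate 2 and 5 without CON replicate 3, and 2 to 4 in the other settings. With the replicate block the difference of miR-21a-5p was -1.72, that of miR-21a-3p was -3.32 and the count was 3. Median-of-ratios scaling moved the median of all miRNAs tested from -0.072 to 0.028. Same-numbered libraries share only a number: their deviations from the group means correlated at -0.42, -0.25 and 0.045 over 290 miRNAs. A passenger level under 0.127 RPM, 3 reads over the pooled SE libraries, is below what this depth shows.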
